A study of Saccharomyces cerevisiae with 51 samples.

Results

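Cytoplasmic ribosomal protein genes were taken from the before version of the deposited yeast annotation as nuclear protein-coding genes whose name is RPL or RPS, a number and, for duplicated genes, a final A or B. The rule found 132 genes, 1.98% of the 6664 nuclear protein-coding genes. Of these, 76 encode proteins of the large subunit (RPL) and 56 proteins of the small subunit (RPS). All 132 also carry the same symbol in the RefSeq gene table of assembly R64. Among nuclear protein-coding genes, the name was the only value the rule used. The rule was set with earlier results of these data known.

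The series holds 51 libraries of BY4741 budding yeast: input DNA, histone H3 ChIP and ChIP for H3 phosphorylated at serine 10 (H3pS10), with 17 of each. With and without beta-estradiol (1 nM for 3 hours), they cover wild-type, ipl1-TetR-mCh, sgo1-TetR-mCh, sgo1 delta and H3-S10A cells. After heat treatment (37 °C for 90 minutes), they cover wild-type, ipl1-321 and cdc15-1 cells. The files analysed here describe the genome and hold no value for any library, so no group of libraries is compared and the depth is unknown. All values below are positions, lengths and counts read from the annotation. Being complete counts of 1 annotation, they carry no replicate error and were not tested.

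A ribosome joins ribosomal RNA to a set of small basic proteins, most of them needed in equal amounts. In budding yeast their genes are among the most strongly transcribed, largely under Rap1, Fhl1, Ifh1 and Sfp1, and their transcripts make up much of the load of the spliceosome in growing cells. An ancient duplication of the whole genome left many of them as A and B copies that encode identical or nearly identical proteins. Few yeast genes have introns, and several ribosomal proteins are known to control the splicing of their own transcripts.

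An intron, counted here as a gap of 20 bp or more between exon records, was present in 88 of the 132 genes (66.7%). Over all nuclear protein-coding genes the share was 4.1% (273 of 6664), and over those outside the set it was 2.83% (185 of 6532). Thus 32.2% of all intron-containing nuclear protein-coding genes encoded a cytoplasmic ribosomal protein. The share was similar in both subunits, 52 of 76 large-subunit genes (68.4%) and 36 of 56 small-subunit genes (64.3%). Among duplicated genes it was 83 of 114 (72.8%), and among single-copy genes 5 of 18 (27.8%).

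The introns were long for yeast. The 90 introns of ribosomal protein genes had a median of 408.5 bp (quartiles 365.8 and 459.8 bp), against 98 bp (quartiles 83 and 144 bp) for the 192 introns of other genes. Lengths of 300 to 600 bp made up 83 of the 90 introns (92.2%) and 18 of the 192 others (9.38%). Below 200 bp the order was the reverse, with 1 of 90 and 157 of 192 (81.8%). The longest introns of all were outside the set: 6 introns of other genes reached 600 bp or more, up to 1002 bp, and none of the 90 did. Ribosomal protein genes held 31.9% of all introns of nuclear protein-coding genes but 55.3% of the intron sequence, 36786 of 66518 bp.

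**Figure D1:**
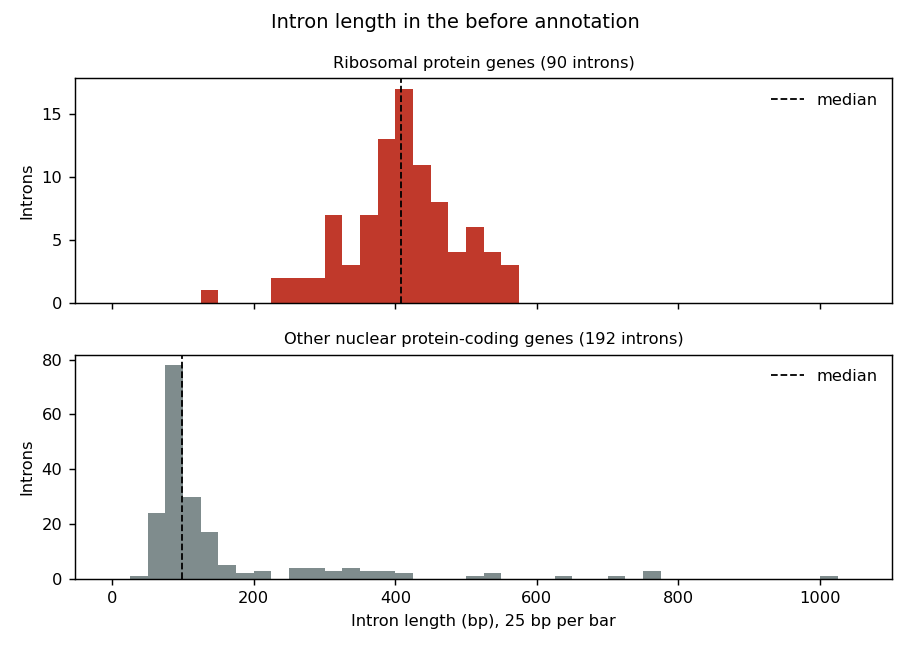
Number of introns by length in bp, in bars of 25 bp, for ribosomal protein genes (upper panel) and other nuclear protein-coding genes (lower panel), with the median as a dashed line. The 90 ribosomal protein introns centre on 408.5 bp, and most of the 192 others lie near 98 bp.

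At the short end, RPL2A (chromosome VI, 220507 to 221418, minus strand) had an intron of 147 bp. Its protein belongs to the rRNA core near the peptidyl transferase centre. It was followed by RPL30 with 230 bp, RPL36B with 238 bp, RPS4A with 256 bp and RPS4B with 269 bp. Rpl30 is known to bind its own transcript and block its splicing. At the long end stood RPL27A with 561 bp (chromosome VIII, intron at 126552 to 127112), RPS19B with 551 bp, RPS27B with 550 bp, RPS16A with 544 bp and RPS13 with 539 bp. RPL2A stood apart at the short end, and the long end had no such gap.

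The median coding length, stop codon included, was 435 bp for the 132 genes, 1080 bp for all nuclear protein-coding genes and 735 bp for other genes with an intron. RPL41A and RPL41B were the shortest, with 78 bp for a protein of 25 residues, followed by RPL39, a small protein of the exit tunnel, with 156 bp. RPL3, whose protein reaches toward the peptidyl transferase centre, was the longest with 1164 bp, before RPL4A and RPL4B with 1089 bp each. Members with introns had a median coding length of 417 bp and those without 511.5 bp.

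Introns filled a median of 49.3% of the gene from start to stop codon, between 16.1% in RPL2A and 71.2% in RPL39. In other genes with introns the median was 13.8%. The intron sequence was longer than the coding sequence in 40 of 88 ribosomal protein genes (45.5%) and in 6 of 185 others (3.24%). RPS30A, with 430 bp of intron and 192 bp of coding sequence, and RPS27B, with 550 bp and 249 bp, were close to RPL39 in this respect.

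The first intron lay close to the start codon. It came after a median of 15 coding bases in the 88 ribosomal protein genes (quartiles 4 and 42.75) and after 40 in the 185 others (quartiles 19 and 110). At most 30 coding bases came before it in 59 of 88 genes (67.0%) and in 79 of 185 (42.7%). As a share of the coding sequence, the median position was 3.56% in ribosomal protein genes and 5.66% in other genes. No exon record of any nuclear protein-coding gene reaches beyond its coding records, so introns upstream of a start codon are not part of these counts.

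In 17 of the 88 genes (19.3%) the first intron split the start codon or followed it directly, against 11 of 185 others (5.95%). It split the start codon in 6. In RPL20A and RPL20B the intron began after the first base, and in RPL19A, RPL19B, RPL43A and RPL43B after the second. It came directly after the start codon in 11, namely RPL30, RPL35A, RPL35B, RPS17A, RPS17B, RPS24A, RPS24B, RPS27A, RPS27B, RPS30A and RPS30B. All but RPL30 of these 17 genes are A or B copies, and each of them shares the position with its partner.

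**Figure D2:**
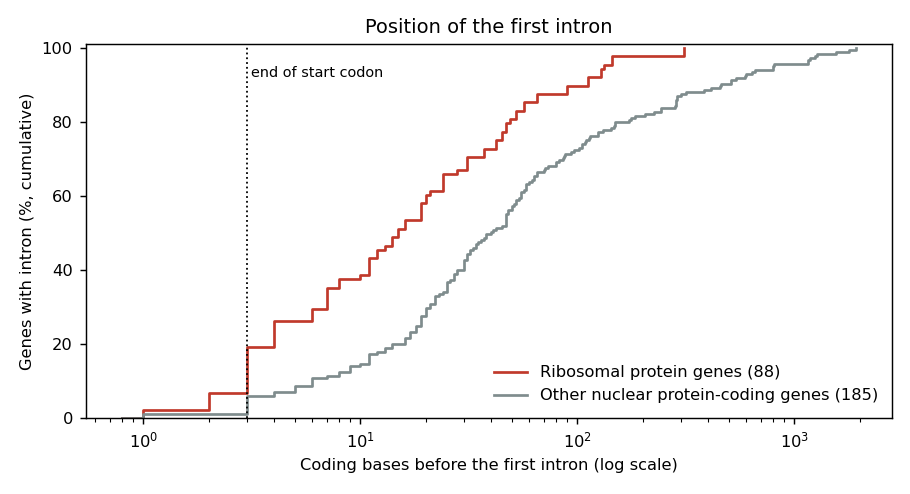
Cumulative share of genes with an intron (percent) against the number of coding bases before the first intron (log scale), for 88 ribosomal protein genes and 185 other nuclear protein-coding genes. The ribosomal protein curve lies to the left, with 19.3% of genes at or before the end of the start codon (dotted line) against 5.95%.

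Late first introns were rare. RPL17A and RPL17B had theirs after 309 of 555 coding bases (55.7%). They were followed by RPS7A and RPS7B (144 bases), RPS22B (133) and RPL14A and RPL14B (129). These 7 were the latest, and 86 of the 88 genes had the first intron within the first 150 coding bases, against 148 of 185 others.

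RPL7A and RPL7B, which encode a large-subunit protein, were the only members with 2 introns, against 7 other genes with 2 or more. In both copies the introns came after 11 and 105 coding bases. They measured 459 and 468 bp in RPL7A and 409 and 407 bp in RPL7B. In each copy the second intron holds a box C/D small nucleolar RNA gene, of the kind that guides methylation of ribosomal RNA. snR39 (89 bp) lies 181 bp from the 5′ end and 198 bp from the 3′ end of the RPL7A intron. snR59 (78 bp) lies 161 and 168 bp from the ends of the RPL7B intron.

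Only RPS22B carried a further small nucleolar RNA gene in an intron. snR44, of the H/ACA class that guides pseudouridylation, takes up 211 of its 483 bp. It sits 135 bp from the 5′ end and 137 bp from the 3′ end. All 3 RNA genes have the orientation of their host. In all, 4 of the 90 introns held another annotated gene, against 6 of the 192 introns outside the set. The fourth was the intron of RPL13B, with YMR141W-A on the opposite strand, a name with no match in the RefSeq table.

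The A and B copies formed 57 pairs, or 114 genes, and 18 members had no partner by name. Partners lay on different chromosomes in 53 pairs and on the same one in 4. RPL35A and RPL35B on chromosome IV were 99082 bp apart, and RPL41A and RPL41B on the same chromosome 91239 bp. RPL19A and RPL19B on chromosome II were 244809 bp apart, and RPL24A and RPL24B on chromosome VII 349377 bp. By annotated strand, 28 pairs had the same orientation and 29 the opposite one.

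Coding length was kept almost throughout, equal in 53 of 57 pairs. The 4 exceptions differed by whole codons. RPL16A had 600 bp and RPL16B 597 bp, RPL22A 366 and RPL22B 369 bp, RPS14A 414 and RPS14B 417 bp, and RPS9A 594 and RPS9B 588 bp. Rps14 is known to repress its own B copy through the RPS14B transcript, and Rpl22 the splicing of RPL22B.

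Intron presence was shared as well. Both copies had an intron in 41 pairs and neither in 15. Among the 15 were RPL1, RPL4, RPL8, RPL9, RPL11, RPL12, RPL15, RPL24, RPL41, RPS1, RPS25, RPS26, RPS28 and RPS29. RPS22 was the single pair that differed. RPS22A (chromosome X, 74910 to 75302, minus strand) had no intron, and RPS22B (chromosome XII, 856442 to 857317, plus strand) had 1 intron of 483 bp after 133 coding bases. Both copies of RPS22 had 393 coding bases.

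The place of the intron was the same in nearly all pairs, and its length was not. The first intron came after an equal number of coding bases in 39 of 41 pairs (95.1%). Among the 3787 combinations of intron-containing members from different families, 90 (2.38%) had the same position. The exceptions were RPL16, with 31 bases in A and 28 in B, and RPS14, with 7 in A and 10 in B. These shifts of 3 bases equal the difference in coding length of the same pairs. RPL22 and RPS9 kept the intron position, so their length difference lies after it.

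Intron length was equal in 1 of 41 pairs, RPL14, with 398 bp in both copies. RPL33 differed by 2 bp (525 and 527 bp), RPL17 by 11 bp (306 and 317 bp) and RPS4 by 13 bp (256 and 269 bp). The median difference within pairs was 66 bp (quartiles 33 and 112 bp). Between intron-containing members of different families the median was 74 bp. The correlation of the A and B lengths over the 41 pairs was weak (Pearson's r = 0.116, Spearman's rho = 0.142), given as a description of pairs that share an origin.

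The pairs furthest apart in intron length were RPL2 (147 bp in A, 400 bp in B), RPL36 (463 and 238 bp), RPS27 (351 and 550 bp) and RPL27 (561 and 384 bp). In each of these 4 pairs coding length and intron position were equal. The longer intron was in the A copy in 24 pairs and in the B copy in 16. The median was 415 bp in the 41 A copies with an intron and 406.5 bp in the 42 B copies.

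**Figure D3:**
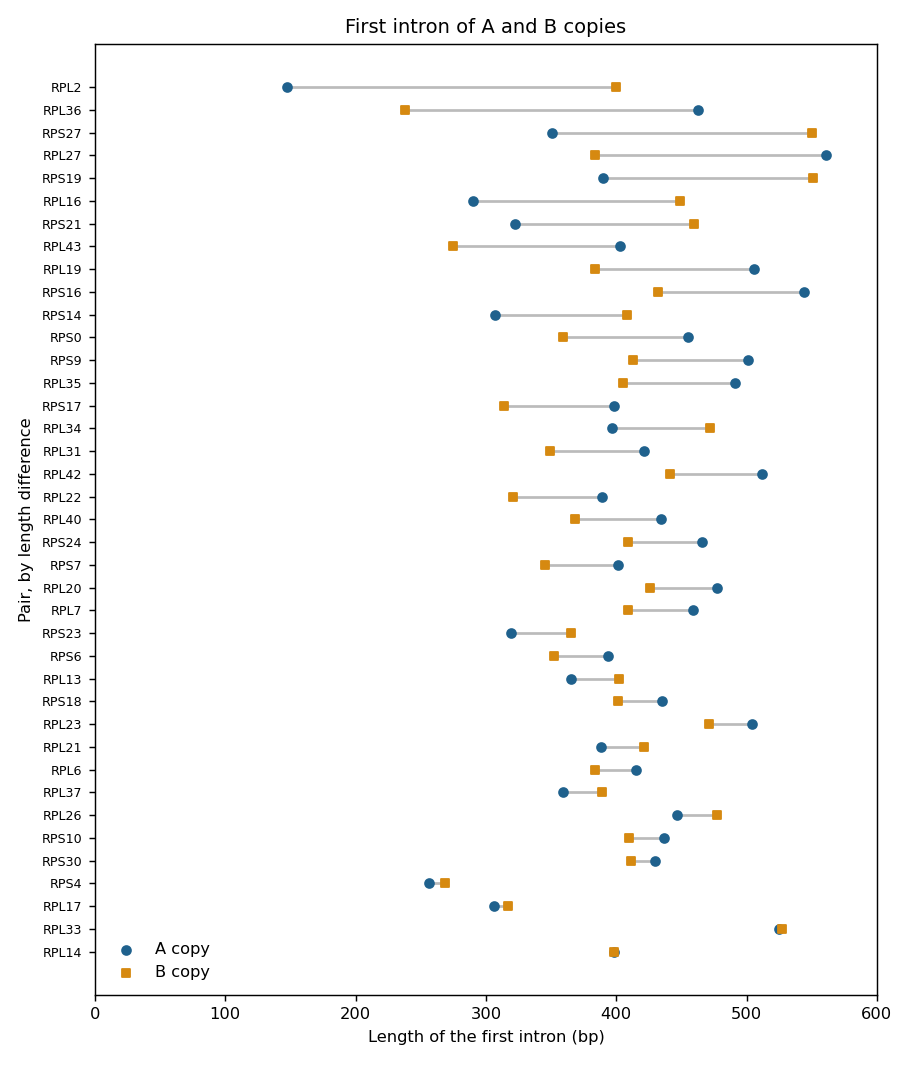
Length of the first intron in bp for the A copy (blue circles) and B copy (orange squares), for 39 of the 41 pairs with an intron in both, ordered by their difference. The gap runs from 0 bp in RPL14 to 253 bp in RPL2, and neither copy is the longer throughout.

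Of the 18 single-copy members, 5 had an intron: RPL25 (414 bp), RPL28 (511 bp), RPL30 (230 bp), RPL39 (386 bp) and RPS13 (539 bp). Rpl25 sits at the exit of the polypeptide tunnel, and RPL28 is the gene in which cycloheximide resistance mutations arise. Their introns came after 13, 49, 3, 6 and 21 coding bases, in the order given. The other 13 had none, among them RPL3, RPL5, RPL10, RPL29, RPL32, RPL38, RPS2, RPS3, RPS12, RPS15, RPS20 and RPS31. Rpl5 binds 5S rRNA, Rpl10 joins the large subunit late in its maturation, Rps2 and Rps3 line the entry of the mRNA channel, and RPS31 encodes a fusion with ubiquitin.

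The other ubiquitin fusions of the ribosome, RPL40A and RPL40B, both had an intron, of 434 and 368 bp after 8 coding bases. In RPS31 (chromosome XII, 498947 to 499405), with 459 coding bases, none was annotated.

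The genes were spread over 15 of the 16 nuclear chromosomes. Chromosome I, the shortest, had none among 119 protein-coding genes, and chromosome III had 1, RPS14A (177500 to 178220). Chromosome XII had the most, 17 of 586 genes (2.9%), followed by chromosome IV with 16 of 853 (1.88%) and chromosome VII with 14 of 593 (2.36%). All 5 members on chromosome IX and all 5 on chromosome XI had an intron, against 6 of 14 on chromosome VII and 8 of 17 on chromosome XII. Over all members the share was 88 of 132 (66.7%). With so few genes per chromosome, no difference between chromosomes is read from these counts. The longest stretch between consecutive members, chosen after its value was seen, was on chromosome IV: 721163 bp and 385 other protein-coding genes lie between RPS13 and RPL12B. On chromosome X, 451031 bp and 236 genes lie between RPS21B and RPL43B. The annotated strand was plus for 71 members and minus for 61.

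None of the 132 genes lay within 30 kb of a chromosome end, where 7.14% of nuclear protein-coding genes were found. The nearest to an end was RPL8A (chromosome VIII, 35254 bp from the end), followed by RPS4A (42683 bp), RPL32 (45977 bp), RPL29 (46724 bp) and RPL8B (47858 bp). At the other extreme, 2 genes (1.52%) lay within 20 kb of the interval between the chromosome arms, against 5.63% of all, and 5 (3.79%) within 30 kb, against 8.34%. The median distance from that interval was 231 kb for members and 215 kb for all nuclear protein-coding genes.

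Both genes within 20 kb of an interval between arms were copies of RPL14. RPL14B (chromosome VIII, 104277 to 105091) is the last gene of its left arm and itself borders the interval. RPL14A (chromosome XI, 431906 to 432720) lies 6665 bp from the interval, also on a left arm. They are the pair with introns of equal length. The next nearest were RPL27A (20466 bp), RPL4B on chromosome IV (21633 bp) and RPS20 (29314 bp).

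**Figure D4:**
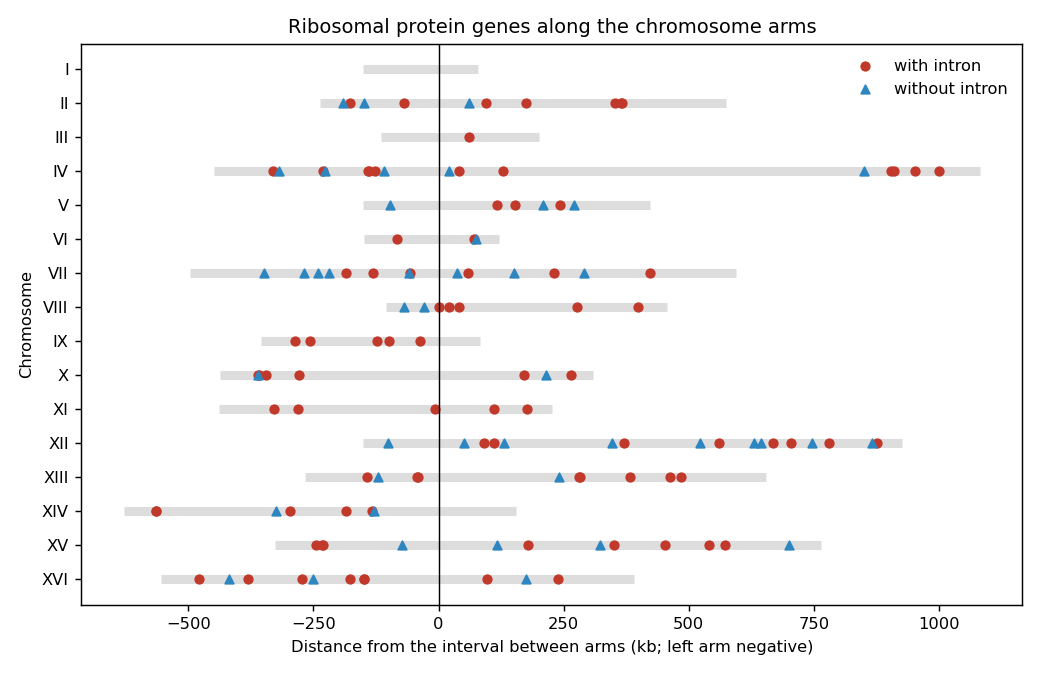
Distance of each of the 132 genes from the interval between the arms of its chromosome in kb, left arm negative, with 1 line per chromosome and grey bars for the length of the arms. Red circles mark genes with an intron and blue triangles genes without, and chromosome I carries none.

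Some members were neighbours, and several neighbourhoods occurred in a second copy. With only RefSeq-matched protein-coding genes counted, 8 sets of neighbours had no gene between them, and they involved 15 members. On chromosome X, RPS14B, RPS22A and RPL39 stood in a row, with 298 bp between RPS14B and RPS22A and 630 bp between RPS22A and RPL39. On chromosome VII, RPL24A and RPL30 were divergent and 1156 bp apart.

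The divergent genes RPS16B and RPL13A on chromosome IV, 634 bp apart, had their counterpart in RPL13B and RPS16A on chromosome XIII, 720 bp apart and divergent too. On chromosome II, RPS9B and RPL21A were in tandem with 761 bp between them. RPS9A and RPL21B on chromosome XVI were in tandem too, with 591 bp that include YPL080C. The divergent genes RPS17B and RPS18A on chromosome IV were separated by ADA2 and UTP6 (4369 bp), and RPS18B and RPS17A on chromosome XIII, also divergent, by YML6 (2060 bp). Of 14 such neighbourhoods with at most 3 genes between members, 8 belonged to 4 duplicated arrangements, these 3 among them.

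RPL35 and RPL41 showed a further repeated order within chromosome IV. RPL35A and RPL41A enclosed 5 genes in 11889 bp, among them PPH22, and RPL35B and RPL41B enclosed RDI1 and PPH21 in 3356 bp. PPH21 and PPH22 encode the catalytic subunits of protein phosphatase 2A. The remaining neighbourhoods were RPL2A and RPL29 on chromosome VI, with RRT5 between them, and RPL16B and RPL9B on chromosome XIV, with FKH2 and YNL067W-B between them.

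The gap from the start codon to the nearest upstream gene had a median of 630 bp (quartiles 459.8 and 794.8 bp). For 5848 other RefSeq-matched genes it was 430.5 bp (quartiles 277.8 and 688 bp). The range ran from 76 bp for RPL20A, with YMR242W-A upstream, to 2653 bp for RPL43B, with IME1, the inducer of meiosis, upstream. The upstream neighbour was divergent for 75 of 132 members (56.8%) and for 51.6% of the others. These gaps run from the coding sequence to the nearest upstream coding sequence or annotated RNA gene, and include untranslated parts of the transcripts.

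Another annotated gene overlapped 18 of the members (13.6%), against 20.2% of all nuclear protein-coding genes. All 132 members are in the RefSeq table, but only 5989 of the 6664 nuclear protein-coding genes are. The share among RefSeq-matched genes alone was not computed, so no order is read from these shares. Of the 19 overlapping genes, 3 were the small nucleolar RNAs above, and the other 16 had no entry in the RefSeq table. Of the members, 15 were overlapped on the opposite strand. The share of all nuclear protein-coding genes overlapped on the opposite strand was not computed, so nothing is read from this count. Both RPL12 copies were overlapped on that strand by 311 bp, RPL12A by YEL053W-A and RPL12B by YDR417C. For RPL28 the overlap with YGL102C was 423 bp, and for RPL8B that with YLL044W was 414 bp. BUD19 overlapped RPL39 by 273 bp, BUD28 overlapped RPL22A by 372 bp and OPI11 overlapped RPL43A by 324 bp. RPL21A was overlapped on its own strand, by 8 bp, by YBR190W.

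The before and after versions of the genome differ on chromosome IV, where genes of the right arm are moved by -3423 bp in the after version. This touched 8 of the 132 genes (6.06%), against 8.87% of nuclear protein-coding genes. Among the 8 were RPL4B (lowest coordinate 474958 before, 471535 after), RPS13 (582563 and 579140), RPL12B (1304721 and 1301298), RPS17B (1357934 and 1354511), RPS18A (1363028 and 1359605), RPL27B (1404875 and 1401452) and RPL37B (1453303 and 1449880). The 8 on the left arm, RPL13A, RPL31A, RPL35A, RPL35B, RPL41A, RPL41B, RPS16B and RPS29B, kept their coordinates. So did the 116 members on other chromosomes. Partners of the moved genes all lay elsewhere and kept theirs, so in 7 pairs 1 copy moved. RPS13 has no partner. Intron and coding lengths were the same in both versions.

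The deposited grids divide each nuclear chromosome into 500 bins, so bin width follows chromosome length. For the chromosomes with members it ran from 541 bp on chromosome VI to 3071 bp on chromosome IV. Of the 132 genes, 59 lay within 1 bin of the before grid, 69 touched 2, and RPL2A, RPL2B, RPL22B and RPS14A touched 3. No member intron was longer than a bin of its chromosome. A single bin, on chromosome IV, held the midpoints of 2 members, the divergent genes RPS16B and RPL13A.

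By midpoint, 3 members (2.27%) fell into a bin with a different number in the after version, against 3.98% of nuclear protein-coding genes. The count depended on how a gene was placed, with 5 by the start codon and 8 by every bin touched, so no order against all genes is read from it. Among the 3, RPL35B went from bin 71 to 72 and RPS29B from 111 to 112, although neither gene moved. The other 13 members on chromosome IV kept their number by midpoint.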

How the data were processed

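Per the submitters' processing notes, Bowtie2 (version 2.2.9) aligned the reads. A genome build was not given in the sources used here. What the authors deposited are lists of chromosome lengths, bins and annotation records in bp, with Ensembl as the source field. They hold no counts or other values per library, and chromosome IV has its own name in each version.

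Introns were gaps of 20 bp or more between exon records. Coding length joined coding and stop codon records. Positions are 1-based and belong to the before version unless the text says otherwise. Arms were read from systematic names, and the interval between arms runs from the last left-arm to the first right-arm gene. Distances from it or from a chromosome end run to the nearest base of the gene. Identifiers were looked up in the RefSeq table of assembly R64 (5989 of 6664 nuclear protein-coding genes found), used for names, for neighbours among protein-coding genes and as a filter on doubtful genes. Upstream gaps also count all annotated RNA genes.

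A few members are counted but not reported by name here. The members and lists were chosen with earlier results of these data known. A fixed rule set which genes to name: unpaired genes, exceptional pairs, extremes of length and position, neighbours, overlaps and chromosome IV. Some others, such as RPL40A, RPL40B and pairs without introns, were named outside it. Planned comparisons of protein and promoter sequences were not made, because no sequence was used here. The intron reader was tested on simulated data and recovered 200 of 200 genes. Python 3.11.15, pandas 2.3.3, numpy 2.4.6, scipy 1.17.1 and matplotlib 3.10.9 were used.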

Additional observations from a re-analysis of the deposited data

How the results depend on the processing

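The 13 results were recomputed in 34 alternatives, of which 27 gave the reported value. A gap of 1 or 50 bp, coding records in place of exon records, and the after annotation left each count and median they were tried on unchanged. Adding the stalk genes and ASC1 gave 138 genes, 90 with an intron, 59 pairs and 54 on different chromosomes. The count with another bin number was 3 by midpoint. It was 5 when a gene was placed by its start codon, and 8 when all bins it touches were compared. The share of all nuclear protein-coding genes with an intron was 4.1%, and 4.51% among RefSeq-matched genes. No paired analysis was possible because the coordinate files give no measurement per library. No alternative for H3pS10 was therefore run. The annotation shows neither introns upstream of start codons nor whether an intron is spliced in these cells.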

Other observations

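Among the 6 ribosomal genes outside the name pattern, RPP1B of the acidic stalk had an intron of 301 bp after 114 coding bases and ASC1, the yeast RACK1, an intron of 273 bp after 537. RPP0, RPP1A, RPP2A and RPP2B had none. Of 31 translation factor genes, 2 (6.45%) had an intron, against 4.1% of nuclear protein-coding genes. They were EFB1 (366 bp after 80 coding bases) and TEF4 (326 bp after 205), both encoding subunits of the exchange factor of elongation factor 1. All 4 of these introns were over 200 bp long, as were 89 of the 90 introns of the ribosomal protein genes. Of the 192 introns outside the set, these 4 included, 157 (81.8%) were below 200 bp.

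The 66 nuclear genes listed for mitochondrial ribosomal proteins were taken by name: MRP, MRPL, MRPS or RSM and a number. Genes for such proteins under other names were not counted. Of the 66, 1 (1.52%, against the same 4.1%) had an intron, MRPL44, with 147 bp after 58 coding bases. The median coding length of the 66 was 706.5 bp, against 435 bp for the cytoplasmic set. No intron was annotated in the 14 genes for regulators of ribosomal protein gene transcription, such as RAP1, FHL1 and IFH1, or in the 14 for chaperones and importers of ribosomal proteins, such as ACL4, RRB1 and SQT1. In lists of this size a count of 0 lies near the 4.1% of all nuclear protein-coding genes, so nothing is read from it.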
